A study of Danio rerio with 24 samples.

Results

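The hoxba cluster is a row of Hox genes on zebrafish chromosome 3, and 9 of its genes, hoxb1a to hoxb9a, were followed here through early development in vitamin E (VitE) deficient and sufficient embryos. The members were picked by gene identifier, with no rule on measured values, though earlier results of these data were known. They make up 9 of the 32520 genes in the count table. Whole zebrafish embryos of the Tropical 5D strain came from adults fed a VitE deficient (E–) or a VitE sufficient (E+) diet. Collection was at 12 hpf (hours post-fertilization), 18 hpf or 24 hpf, and each sample was a pool of 10 embryos. There were 4 pools per diet and time, or 24 pools in 6 groups, namely E– and E+ at 12 hpf, E– and E+ at 18 hpf, and E– and E+ at 24 hpf. Expression was measured by sequencing the 3′ ends of polyadenylated RNA. Replicates 1 and 2 of each group were read on lane 7 and replicates 3 and 4 on lane 8.

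The diet was given to the parents and the embryos came from group spawning, so a difference between E– and E+ embryos cannot be told apart from other differences between the spawning groups. Embryos that looked malformed or off stage were not used. Separate spawnings for the 4 replicates of a group are not mentioned in the sources used here, and p-values therefore measure the spread between pools, which may be technical. Each pool is a whole embryo extract, in which fewer cells that express a gene and less RNA per cell cannot be told apart.

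Hox genes encode homeodomain transcription factors that give cells their identity along the head to tail axis. In vertebrates they lie in clusters, and genes at the 3′ end of a cluster are switched on earlier and reach further forward, into the hindbrain, than genes at the 5′ end, which act in the trunk and tail. This match between gene order and expression is called colinearity. The numbers in the names give the paralog group, and the hoxba cluster is a copy of the ancestral HoxB cluster that was duplicated in the teleost lineage. In a RefSeq annotation of another zebrafish assembly, the cluster held 11 hox genes in the order of their numbers, the 9 described here followed by hoxb10a and hoxb13a. In that annotation the models of 3 members, hoxb4a, hoxb5a and hoxb6a, lay inside the span of the hoxb3a model. Reads that fell on more than 1 gene, between 1.14% and 1.5% of the reads of a pool, were not counted to a gene. This uncounted share differed with diet, and every E– pool lay below every E+ pool of its time. At 12 hpf the largest E– value was 1.23%, below the smallest E+ value of 1.25%. These limits were 1.29% and 1.42% at 18 hpf, then 1.34% and 1.40% at 24 hpf. The reads counted to all 9 members made up only 0.0143% to 0.0223% of the gene reads of a pool, so this share sets no useful bound on what these 4 genes may have lost, and how many of the uncounted reads belonged to the cluster was not tested. Whether these 4 genes overlap in the annotation used for the counts was not tested. Their values are therefore left uncertain, and so are their comparisons between the diets. What the uneven share of uncounted reads did to these comparisons was not tested.

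Between 10537272 and 20973407 reads per pool were assigned to genes (median 15436757). Levels are given as CPM, the reads of a gene per 1000000 gene reads of its pool after scaling of the library sizes. The gene with the most reads took 25.1% to 39.2% of the gene reads of a pool. The median of this share was 34.7%, 29.9% and 26.9% in E– pools of 12, 18 and 24 hpf. In E+ pools it was 35.3%, 30.4% and 26.2%. CPM are relative, and the part of this shift in the changes with age was not tested. The libraries hold 1 end of each transcript, so CPM were not divided by gene length and levels are compared between groups, not between genes. The 9 genes together took only 0.0143% to 0.0223% of the gene reads of a pool. Another 22.4% to 30.2% of the reads of a pool fell on no annotated gene, and whether transcripts of the cluster are among them was not tested. Changes are given as log2 fold changes (log2FC) with their standard error (SE), from edgeR's quasi-likelihood test over all groups at once. A gene was called changed at a false discovery rate (FDR) under 0.1, adjusted by the method of Benjamini and Hochberg over the 19597 genes with enough reads to test. Of the 9 members, 8 were tested.

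The plot of CPM in each pool by gene shows the whole data set for the cluster. From 12 to 24 hpf, hoxb2a rose, hoxb7a and hoxb9a fell, and hoxb3a, hoxb5a and hoxb6a had their highest group means at 18 hpf. hoxb8a moved little, and hoxb1a and hoxb4a had few reads. The curves of E– and E+ embryos mostly lay close together, but hoxb5a at 18 hpf averaged 27.2 CPM in E– and 33.6 CPM in E+ pools.

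**Figure D1:**
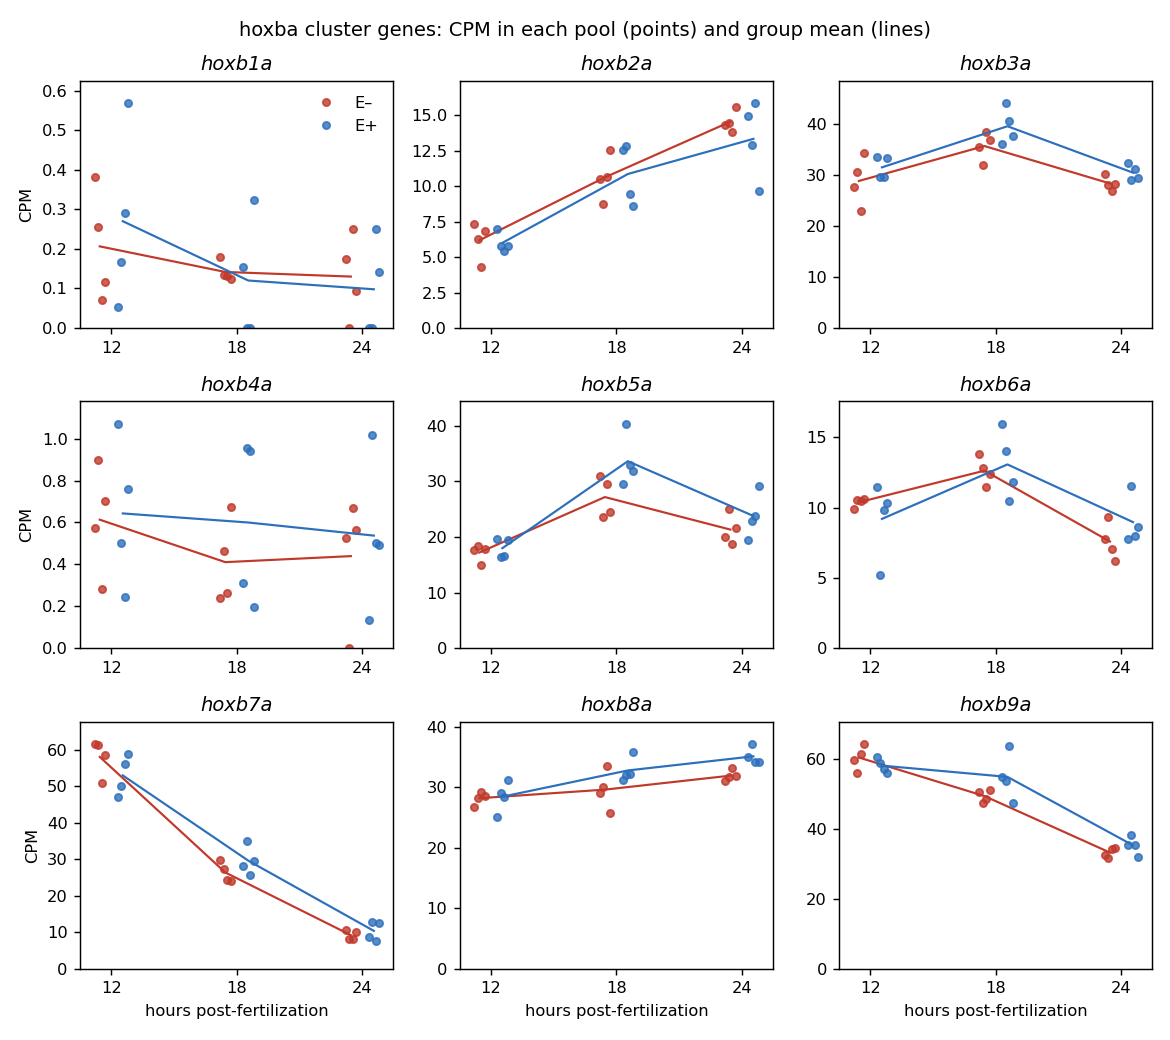
CPM of each of the 9 genes (vertical axis, starting at 0, own scale for each gene) against hours post-fertilization, with 1 point per pool (E– left of E+, 4 pools per group) and lines through the group means. hoxb7a lies between 50.7 and 61.4 CPM in E– pools at 12 hpf and between 8.05 and 10.7 CPM at 24 hpf, while the points of hoxb1a and hoxb4a scatter near 0.

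The most anterior gene, hoxb1a (ENSDARG00000008174), sets the identity of the fourth rhombomere of the hindbrain. It had between 0 and 9 reads in a pool and 61 reads in all 24 pools, with no read in 5 of them. At 12 hpf it averaged 0.207 ± 0.142 CPM in E– pools and 0.270 ± 0.221 CPM in E+ pools (SD, n = 4 each). At 24 hpf the means were 0.130 ± 0.108 CPM in E– pools and 0.0979 ± 0.122 CPM in E+ pools. These levels are below the minimum for testing, and no change of hoxb1a with diet or age was detectable at this depth.

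hoxb4a (ENSDARG00000013533), a gene of the posterior hindbrain and anterior spinal cord, was tested but also rests on few reads. It had between 0 and 20 reads in a pool and 205 in all. Its group means ran from 0.411 ± 0.203 CPM in E– pools at 18 hpf to 0.643 ± 0.354 CPM in E+ pools at 12 hpf (SD, n = 4 each), a span of means close to the SD within a group. The 95% confidence interval (CI) of its log2FC from 12 to 24 hpf ran from -1.98 to 0.96 in E– embryos and from -1.63 to 1.15 in E+ embryos, so that neither a rise nor a fall could be told at this depth.

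hoxb2a (ENSDARG00000000175) acts in the hindbrain, where its mouse counterpart helps to pattern the third, the fourth and the fifth rhombomeres. At 12 hpf it had 7.34, 6.28, 4.28 and 6.84 CPM in the 4 E– pools, against 6.95, 5.79, 5.46 and 5.81 CPM in the E+ pools. At 18 hpf it had 10.5, 8.77, 10.7 and 12.5 CPM in E– pools, against 12.6, 12.8, 9.48 and 8.58 CPM in E+ pools. At 24 hpf the E– pools had 14.3, 14.5, 13.8 and 15.6 CPM, against 14.9, 12.9, 15.8 and 9.66 CPM in E+ pools. Within each diet, every pool at 24 hpf and every pool at 18 hpf was above every pool at 12 hpf, while the pools of both diets overlapped at each time. For this and the members below, the share of all genes whose pools separated fully between ages is not given. Such a separation is therefore a description. The shares of all genes called, which follow another rule, were 55.5% in E– and 53.3% in E+ embryos from 12 to 24 hpf. They were 42.2% in E– and 43.9% in E+ embryos from 12 to 18 hpf, and 21.8% and 24.8% from 18 to 24 hpf. From 12 to 24 hpf hoxb2a rose 2.35-fold in E– embryos (95% CI 1.82 to 3.01, log2FC 1.23, SE 0.18) and 2.23-fold in E+ embryos (95% CI 1.74 to 2.85, log2FC 1.15, SE 0.18), with adjusted p-values of 3.61e-07 and 8.85e-07 in edgeR's quasi-likelihood test. Most of this rise came before 18 hpf, with a log2FC of 0.78 in E– and 0.86 in E+ embryos. Between 18 and 24 hpf the call in E– embryos (log2FC 0.45, SE 0.17, edgeR adjusted p = 0.0677) was lost without any 1 of 6 pools, replicates 1, 2 or 3 at 18 hpf and replicates 1, 2 or 4 at 24 hpf, with log2FC between 0.37 and 0.46. In E+ embryos the log2FC was 0.30 (SE 0.17, edgeR adjusted p = 0.244), and it passed the threshold at 0.42 without replicate 4 at 24 hpf, the lowest pool of its group.

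hoxb3a (ENSDARG00000029263) is expressed in the posterior hindbrain. Its means were 28.9 ± 4.81, 35.8 ± 2.82 and 28.4 ± 1.34 CPM in E– pools of 12, 18 and 24 hpf, and 31.6 ± 2.24, 39.6 ± 3.53 and 30.5 ± 1.53 CPM in E+ pools (SD, n = 4 each). It rose between 12 and 18 hpf, with a log2FC of 0.31 (SE 0.11) in E– and 0.33 (SE 0.11) in E+ embryos, and fell between 18 and 24 hpf by 0.33 (SE 0.11) in E– and 0.38 (SE 0.11) in E+ embryos on the log2 scale. The rise in E– embryos lost its call without replicate 3 at 12 hpf, the lowest pool of its group (log2FC 0.21). Of all 24 pools, this one had the lowest scaling factor of the library size, 0.859. It also had the largest share of gene reads on a single gene, 39.2%. Over the whole interval the log2FC of hoxb3a was -0.03 in E– and -0.05 in E+ embryos, both with an SE of 0.11. The peak at 18 hpf thus left no net change that passed the test.

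hoxb5a (ENSDARG00000013057) is a gene of the anterior trunk, in spinal cord and somites. At 12 hpf it had 17.7, 18.4, 14.9 and 17.8 CPM in E– pools, against 19.6, 16.4, 16.5 and 19.4 CPM in E+ pools. At 18 hpf it had 30.9, 23.7, 29.6 and 24.6 CPM in E– pools, against 29.5, 40.3, 32.8 and 31.8 CPM in E+ pools. At 24 hpf it had 19.9, 25, 18.7 and 21.7 CPM in E– pools, against 19.4, 22.8, 23.7 and 29.1 CPM in E+ pools. All pools at 18 hpf were above all pools at 12 hpf in both diets. Between 12 and 18 hpf hoxb5a rose 1.58-fold in E– embryos (95% CI 1.31 to 1.9, edgeR adjusted p = 9.90e-05) and 1.87-fold in E+ embryos (95% CI 1.56 to 2.25, edgeR adjusted p = 5.17e-07). It fell by 0.35 (SE 0.13) in E– and by 0.50 (SE 0.13) in E+ embryos on the log2 scale between 18 and 24 hpf, and stayed above its level at 12 hpf, with a log2FC over the whole interval of 0.31 (SE 0.13) in E– and 0.40 (SE 0.13) in E+ embryos. In E– embryos the fall lost its call without any 1 of replicates 1 and 3 at 18 hpf and replicates 1 and 3 at 24 hpf (log2FC -0.32 to -0.28), and the net rise without replicate 3 at 12 hpf (0.25) or replicate 2 at 24 hpf (0.22). The net rise also lost its call when all genes with at least 1 read were fitted (0.28, edgeR adjusted p = 0.111).

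hoxb6a (ENSDARG00000010630) also marks the trunk. Its means were 10.4 ± 0.331, 12.6 ± 0.972 and 7.59 ± 1.33 CPM in E– pools of 12, 18 and 24 hpf, and 9.19 ± 2.76, 13.1 ± 2.40 and 8.96 ± 1.73 CPM in E+ pools (SD, n = 4 each). Between 18 and 24 hpf it fell in both diets, by 0.73 (SE 0.19) in E– and 0.54 (SE 0.18) in E+ embryos on the log2 scale. The call in E+ embryos was lost without replicate 1 at 18 hpf (log2FC -0.44) or replicate 3 at 24 hpf (-0.47). The rise between 12 and 18 hpf passed the test in E+ embryos, with a log2FC of 0.51 (SE 0.18), against 0.28 (SE 0.18) in E– embryos, where it did not. It rests on replicate 2 at 12 hpf, whose 5.18 CPM was the lowest value of hoxb6a, and the call was lost without that pool (0.31) and without replicate 1 at 18 hpf (0.40). Over the whole interval the log2FC was -0.45 (SE 0.19) in E– embryos, a call that was lost without replicate 3 (-0.41) or replicate 4 (-0.36) at 24 hpf, and -0.04 (SE 0.18) in E+ embryos, which turned to 0.0010 with TMM scaling. The interaction of diet and time had an adjusted p of 0.906 for hoxb6a in edgeR's quasi-likelihood test, so these changes were not shown to differ between the diets.

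hoxb7a (ENSDARG00000056030) had the largest change with age among the 8 members tested. At 12 hpf it had 61.4, 61.3, 50.7 and 58.6 CPM in E– pools, against 47.0, 49.9, 56.0 and 58.8 CPM in E+ pools. At 18 hpf it had 29.8, 27.4, 24.3 and 24.0 CPM in E– pools, against 28.2, 35.1, 25.6 and 29.5 CPM in E+ pools. At 24 hpf it had 10.7, 8.19, 8.05 and 9.95 CPM in E– pools, against 8.66, 12.7, 7.72 and 12.4 CPM in E+ pools. The pools of the 3 times did not overlap in either diet, and those of the 2 diets overlapped at every time. hoxb7a was 6.31-fold lower at 24 than at 12 hpf in E– embryos (log2FC -2.66, SE 0.14) and 5.12-fold lower in E+ embryos (log2FC -2.36, SE 0.14), with adjusted p-values of 9.96e-18 and 1.19e-16 in edgeR's quasi-likelihood test. Each step contributed, with log2FC of -1.14 in E– and -0.84 in E+ embryos between 12 and 18 hpf and of -1.52 in both between 18 and 24 hpf. All 6 calls held under each of the 32 alternative fits.

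hoxb8a (ENSDARG00000056027), the neighbour of hoxb7a in the cluster, is expressed in the spinal cord. At 12 hpf it had 26.7, 28.3, 29.3 and 28.5 CPM in E– pools, against 25, 29.1, 28.4 and 31.3 CPM in E+ pools. At 24 hpf it had 31.0, 31.7, 33.1 and 31.9 CPM in E– pools, against 35, 37.1, 34.2 and 34.2 CPM in E+ pools. In each diet all pools at 24 hpf lay above all pools at 12 hpf, by a small margin. hoxb8a rose 1.24-fold from 12 to 24 hpf in E+ embryos (95% CI 1.08 to 1.41, edgeR adjusted p = 0.00794). In E– embryos it was 1.13-fold higher at 24 hpf (95% CI 0.988 to 1.3, edgeR adjusted p = 0.126), which passed the threshold with TMM scaling (adjusted p = 0.0975). Its rise between 12 and 18 hpf in E+ embryos (log2FC 0.21, SE 0.10, edgeR adjusted p = 0.0904) lost its call without any 1 of replicates 1, 2 or 3 at 12 hpf and replicates 2, 3 or 4 at 18 hpf (log2FC 0.15 to 0.22) and in the fit of all genes with a read.

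hoxb9a (ENSDARG00000056023), the most posterior of the 9, acts in the trunk and had the most reads of them, 18449 over the 24 pools. At 12 hpf it had 60.0, 56.3, 61.7 and 64.3 CPM in E– pools, against 60.7, 59.0, 57.1 and 56.2 CPM in E+ pools. At 18 hpf it had 50.6, 47.4, 48.8 and 51.3 CPM in E– pools, against 54.9, 53.9, 63.8 and 47.5 CPM in E+ pools. At 24 hpf it had 32.6, 31.7, 34.2 and 34.7 CPM in E– pools, against 35.6, 38.4, 35.5 and 32.1 CPM in E+ pools. Every pool at 24 hpf was below every pool of both earlier times in either diet. hoxb9a was 1.82-fold lower at 24 than at 12 hpf in E– embryos (log2FC -0.86, SE 0.09, edgeR adjusted p = 3.84e-10) and 1.64-fold lower in E+ embryos (log2FC -0.72, SE 0.09, edgeR adjusted p = 1.65e-08). Between 12 and 18 hpf the log2FC was -0.29 (SE 0.09), a call, in E– embryos and -0.08 (SE 0.09), not a call, in E+ embryos, and the adjusted p of the interaction was 0.887, so a difference between the diets was not shown.

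Counted over the cluster, 5 or 6 of the 8 members tested were called in each comparison of ages, at a period when many genes changed. Of these 8, all but hoxb4a averaged at least 100 reads in a pool, as did 8731 of all 19597 genes tested, and the shares of all genes given beside the counts were not matched for reads. Of the 8 members tested, 5 were called between 12 and 18 hpf in E– embryos, where 42.2% of all genes tested were called, and 6 in E+ embryos, where 43.9% were. Between 18 and 24 hpf 6 were called in E– embryos (21.8% of all genes) and 5 in E+ embryos (24.8% of all genes). Over the whole interval 5 were called in each diet, beside 55.5% of all genes in E– and 53.3% in E+ embryos. The later step held mostly falls, with 5 of 8 members down and 1 up in E– embryos and 5 down and 0 up in E+ embryos. Among all genes 10.6% fell and 11.2% rose in E– embryos, and 11.7% fell and 13.1% rose in E+ embryos. The members called in both diets always had the same sign, a description, since the share of all genes doing so is not given. They were hoxb2a, hoxb3a, hoxb5a and hoxb7a between 12 and 18 hpf, hoxb3a, hoxb5a, hoxb6a, hoxb7a and hoxb9a between 18 and 24 hpf, and hoxb2a, hoxb5a, hoxb7a and hoxb9a from 12 to 24 hpf.

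Along the cluster, the change from 12 to 24 hpf ran from a rise in hoxb2a to falls in hoxb7a and hoxb9a, but not in even steps. hoxb8a lies between the 2 members with the largest falls and did not fall. Over the 8 genes tested, Spearman's rank correlation of log2FC with position in the cluster was -0.55 in E– and -0.48 in E+ embryos from 12 to 24 hpf. Without hoxb4a, whose log2FC is imprecise and which was left out only after its counts were seen, it was -0.64 in E– and -0.57 in E+ embryos. These values describe 8 or 7 genes measured in the same pools and carry no test.

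**Figure D2:**
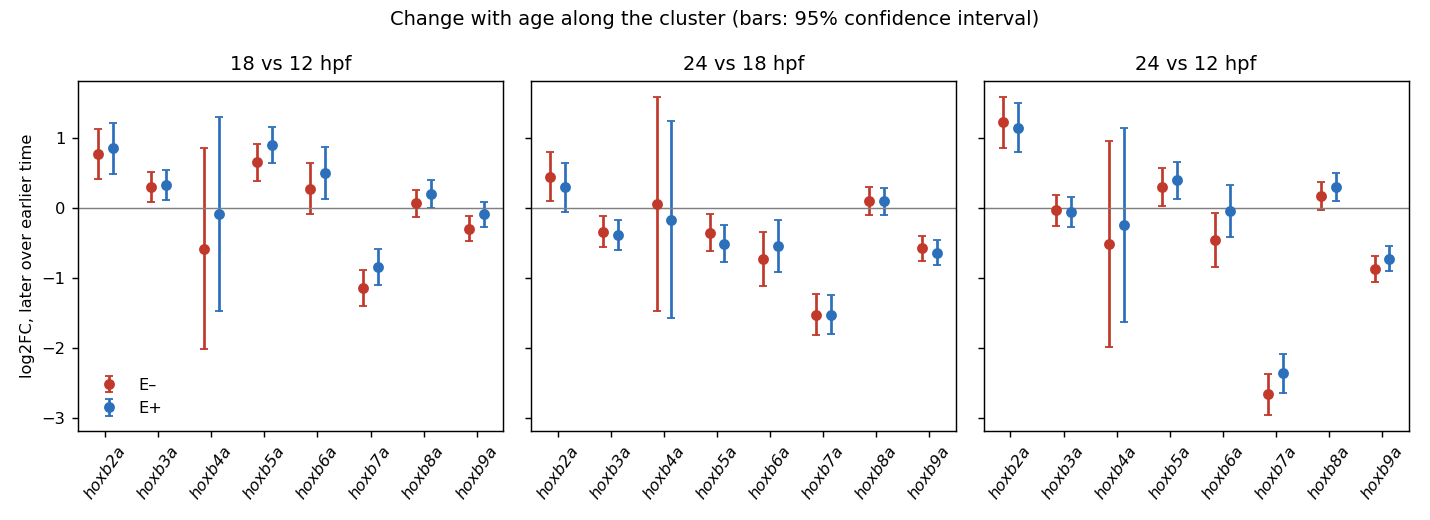
Log2FC of the later over the earlier time for the 8 members tested, in their order along the cluster, in E– (left of each pair) and E+ embryos, with bars for the 95% confidence interval. hoxb7a is lowest in every panel, at -2.66 in E– and -2.36 in E+ embryos from 12 to 24 hpf, and the bars of hoxb4a are the widest.

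The sum of the 9 genes was lowest at 24 hpf in both diets. It averaged 210 ± 11.3, 192 ± 8.28 and 147 ± 2.81 CPM in E– pools of 12, 18 and 24 hpf, and 205 ± 8.56, 215 ± 13 and 158 ± 5.18 CPM in E+ pools (SD, n = 4 each). The make-up of that sum shifted with age. hoxb7a took 27.6% ± 1.55, 13.7% ± 1.38 and 6.27% ± 0.84 of the reads of the cluster in E– pools of 12, 18 and 24 hpf, and 25.8% ± 2.11, 13.7% ± 1.40 and 6.54% ± 1.5 in E+ pools (SD, n = 4 each). Together hoxb7a and hoxb9a held 56.4%, 39.5% and 29.0% at the 3 times in E– pools and 54.2%, 39.3% and 28.9% in E+ pools. The anterior pair hoxb2a and hoxb3a held 16.6%, 24.1% and 29.2% in E– pools and 18.3%, 23.4% and 27.8% in E+ pools. These pairs were formed after the values had been seen, so the shares are a description. A share also moves when the other genes move. hoxb8a took 21.7% ± 0.98 in E– and 22.2% ± 0.44 in E+ pools at 24 hpf, against 13.4% ± 1.09 in E– and 13.9% ± 1.18 in E+ pools at 12 hpf, although its CPM changed little.

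**Figure D3:**
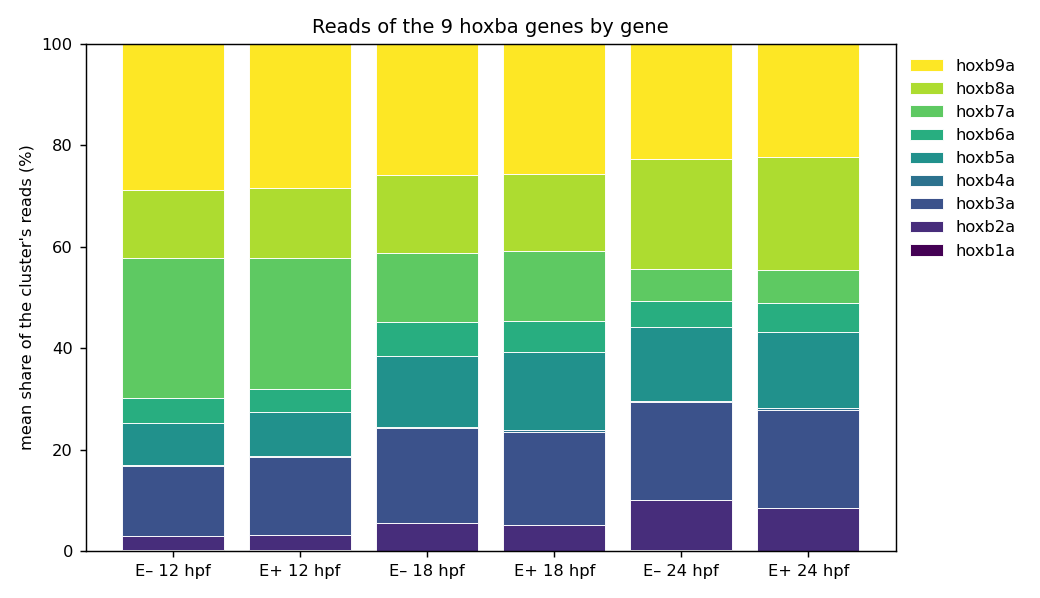
Mean share of the reads of the 9 genes taken by each gene (vertical axis in percent, from 0 to 100, hoxb1a at the bottom and hoxb9a at the top) in the 6 groups, E– left of E+ at each time, 4 pools per group. The hoxb7a band narrows to 6.27% in E– and 6.54% in E+ pools at 24 hpf, and the E– and E+ bars of each time look alike.

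Diet changed no member by the test. Over the 3 times tested jointly 0 of 8 members were called in edgeR's quasi-likelihood test, beside 1.12% of all genes tested. At 12 hpf 0 of 8 were called (0.806% of all genes), at 18 hpf 0 of 8 (0.398%) and at 24 hpf 0 of 8 (0%), and the interaction of diet and time gave 0 of 8 (0.0153%). With so small a background, no call among 8 genes is not a result about the cluster. At an unadjusted p under 0.05, edgeR gave 0, 1 and 0 of 8 members at 12, 18 and 24 hpf. Of all 19597 genes tested it gave 2079, 1792 and 1308, so 1 of 8 at 18 hpf is also no result about the cluster. DESeq2 and the other alternative fits also called 0 members. Leaving out hoxb4a, the 95% confidence intervals of the log2FC of E– over E+ embryos lay between -0.34 and 0.55 at 12 hpf, between -0.57 and 0.32 at 18 hpf and between -0.62 and 0.47 at 24 hpf. Differences within these bounds remain possible.

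The member with the lowest unadjusted p was hoxb5a at 18 hpf. Its 4 E– pools spanned 23.7 to 30.9 CPM, against 29.5 to 40.3 CPM in the E+ pools, and the ranges overlapped. The value of 40.3 CPM came from E+ replicate 2, which had the largest share of unmapped reads of all 24 pools, 13.2%. The log2FC was -0.31 (SE 0.13), with an unadjusted p of 0.0208 and an adjusted p of 0.441 in edgeR's quasi-likelihood test, so the difference did not hold over all genes tested. Without single pools the log2FC of hoxb5a at 18 hpf ranged from -0.38 to -0.21. For hoxb8a at 24 hpf the 2 diets did not overlap, with 31.0 to 33.1 CPM in E– pools and 34.2 to 37.1 CPM in E+ pools. Such a separation was seen in 4.37% of all genes at that time, and the log2FC of -0.14 (SE 0.10) had an adjusted p of 0.856 in the same edgeR test.

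The direction of the small differences was more often downward in E– embryos at the later times. At 12 hpf 4 of 8 members had a log2FC below 0, at 18 hpf 8 of 8 and at 24 hpf 7 of 8, with medians of 0.02, -0.15 and -0.15. Several of these values lay close to 0, and over the alternative fits, single lanes and fits without 1 pool the count was as low as 2 and as high as 5 at 12 hpf. It lay between 6 and 8 for the pools of 18 hpf, and between 5 and 8 for those of 24 hpf. At 18 hpf hoxb2a (-0.03) and hoxb6a (-0.05) turned to 0.36 and 0.09 with lane 8 alone. Among all genes 50.4%, 49.9% and 49.9% lay below 0 at the 3 times. The 36 other hox genes tested, described below, had medians of -0.10, -0.06 and -0.07. Medians below 0 at 18 and 24 hpf were thus not particular to this cluster, though those of the members lay further below 0. How many of the 36 lay below 0 is not given. The sum of the cluster at 18 hpf ranged from 183 to 201 CPM in E– pools and from 203 to 233 CPM in E+ pools. At 24 hpf it ranged from 143 to 149 CPM in E– pools and from 154 to 166 CPM in E+ pools. The pools of the 2 diets did not overlap in either case, and at 12 hpf they did. The gap was narrow as a share of the unscaled gene reads. At 18 hpf the highest E– pool had 0.02069% and the lowest E+ pool 0.02072%, and at 24 hpf 0.01546% and 0.01551%. How often sums of other genes separate in this way was not tested. The sum includes hoxb3a, hoxb4a, hoxb5a and hoxb6a, which may have lost reads that fell on more than 1 gene. The share of such reads also separated the diets at each time. It was lower in every E– pool than in every E+ pool, as the sum was at 18 and 24 hpf. Its part in the gap was not tested. The members share their pools and are not independent of each other, and none of these differences passed the test for a single gene, so the pattern is given as a description.

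**Figure D4:**
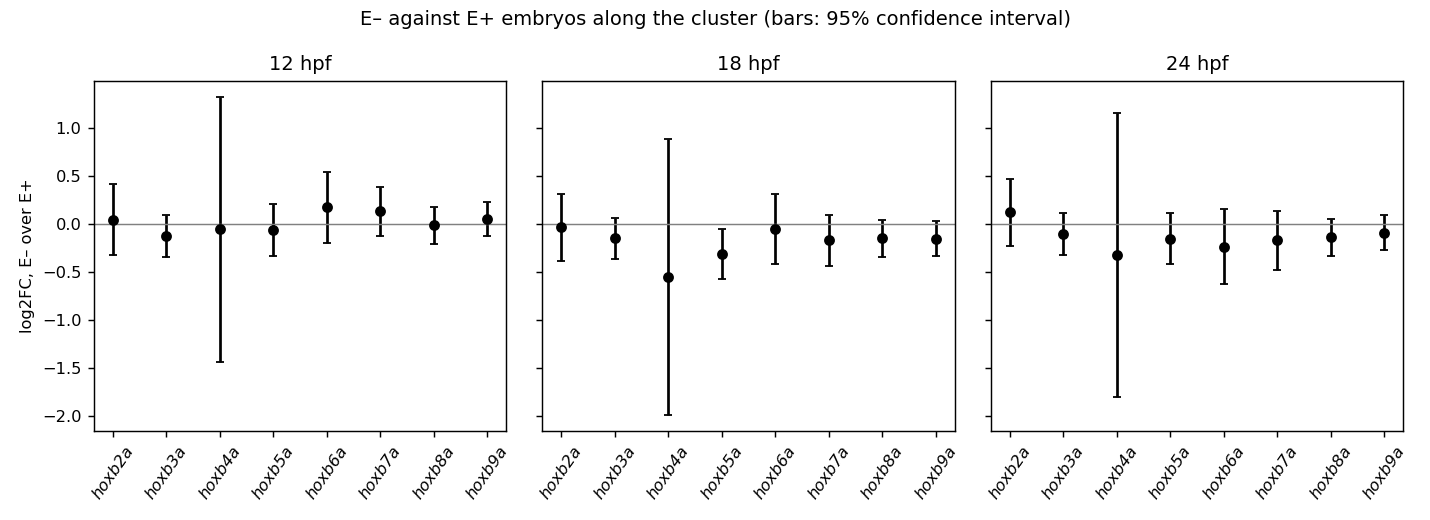
Log2FC of E– over E+ embryos at each time (12, 18 and 24 hpf) for the 8 members tested, in their order along the cluster, with bars for the 95% confidence interval. All bars except that of hoxb5a at 18 hpf (log2FC -0.31) cross 0.

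Beyond hoxb9a in the cluster, hoxb10a fell as well. It averaged 77.4 ± 4.84, 41.5 ± 5.62 and 27.7 ± 2.40 CPM in E– pools of 12, 18 and 24 hpf, and 71.8 ± 9.72, 43.0 ± 5.51 and 26.5 ± 2.88 CPM in E+ pools (SD, n = 4 each). From 12 to 24 hpf it fell by 1.48 (SE 0.12) in E– and by 1.43 (SE 0.11) in E+ embryos on the log2 scale. The last gene of the cluster, hoxb13a in RefSeq and listed under the human-style symbol HOXB13, went the other way. It averaged 4.77 ± 1.32 CPM in E– and 4.75 ± 0.751 CPM in E+ pools at 24 hpf, against 0.104 ± 0.167 CPM in E– and 0.183 ± 0.365 CPM in E+ pools at 12 hpf, and rose in both diets, with edgeR adjusted p-values of 8.38e-08 in E– and 2.89e-07 in E+ embryos.

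With these 2 included, 39 other hox genes had a symbol and 36 were tested. Over the whole interval 14 rose and 11 fell in E– embryos, where 28.9% of all genes rose and 26.6% fell, and 15 rose and 11 fell in E+ embryos, where 27.3% rose and 26% fell. The counts differed between ranges of paralog groups. In groups 1 to 5, 3 of 10 rose and 2 fell in E– embryos, and 4 rose and 2 fell in E+ embryos. Groups 6 to 10 had 1 of 13 up and 9 down in E– embryos, and 2 up and 9 down in E+ embryos, and groups 11 to 13 had 10 of 13 up and 0 down in E– embryos, and 9 up and 0 down in E+ embryos. The 3 ranges of groups were chosen after the values had been seen and are a description. In group 10 alone, 1 of 4 rose and 1 fell in E– embryos, and 2 rose and 1 fell in E+ embryos. No other gene of group 7 was tested, so hoxb7a has no paralog of its own group here. hoxb6a, hoxb7a, hoxb8a and hoxb9a lie in the range of groups whose other members mostly fell. hoxb8a differed from most of these, and hoxb6a in E+ embryos did not fall by the test (log2FC -0.04, SE 0.18). With diet, 0 of the 36 were called over the 3 times (1.12% of all genes) and 1 at 12 hpf (0.806% of all genes), the gene listed as HOXA3, which averaged 14.6 ± 2.21 CPM in E– pools and 20.7 ± 4.81 CPM in E+ pools (SD, n = 4 each, edgeR adjusted p = 0.0749).

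**Figure D5:**
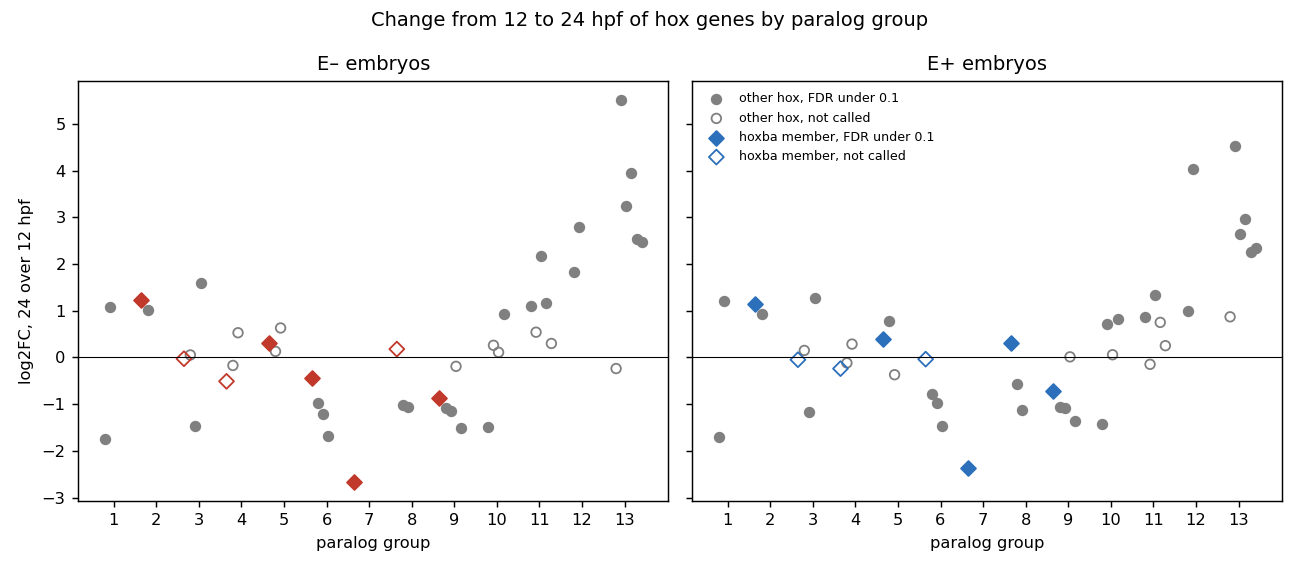
Log2FC of 24 over 12 hpf (vertical axis) against the paralog group of each hox gene tested (horizontal axis), in E– embryos (left) and E+ embryos (right), with diamonds for hoxba members, circles for the other hox genes and filled symbols for an FDR under 0.1. In groups 11 to 13, 10 of 13 genes are filled and above 0 in E– embryos and 9 of 13 in E+ embryos.

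Genes that act on Hox clusters or with Hox proteins were followed as well. Retinoic acid switches on anterior Hox genes, caudal factors and the signal Gdf11 act on posterior ones, factors of the hindbrain such as the one listed as EGR2 act on Hox genes there, and Pbx and Meis proteins bind DNA together with Hox proteins. Of 25 genes listed for these roles 22 were matched and tested. From 12 to 24 hpf 16 of the 22 were called in E– embryos, 6 up and 10 down, beside 55.5% of all genes, and 17 in E+ embryos, 7 up and 10 down, beside 53.3% of all genes. By direction, 28.9% of all genes rose and 26.6% fell in E– embryos, and 27.3% rose and 26% fell in E+ embryos. For diet over the 3 times 0 were called, beside 1.12% of all genes, so this last count is no result about the list. The caudal gene cdx4 averaged 303 ± 34.9, 65.0 ± 6.04 and 11.2 ± 1.2 CPM in E– pools of 12, 18 and 24 hpf, and 298 ± 20.9, 74.0 ± 5.28 and 12.7 ± 3.02 CPM in E+ pools. cdx1a fell by 6.78 (SE 0.33) in E– and by 6.69 (SE 0.32) in E+ embryos on the log2 scale. Of the 3 caudal genes tested, only these 2 were called from 12 to 24 hpf in either diet. Of the partners, 5 of 10 rose in each diet, among them pbx1a, with a log2FC of 1.79 in E– and 1.81 in E+ embryos, and meis1a, with 1.99 in E– and 1.79 in E+ embryos. In E– embryos 1 partner fell, meis2b (log2FC -0.45), and in E+ embryos 2 fell, meis2b (-0.42) and meis3 (-0.40). The retinoic acid degrading enzyme listed as CYP26A1 fell by 2.78 (SE 0.29) in E– and by 2.61 (SE 0.28) in E+ embryos on the log2 scale. CYP26B1, of the same enzyme family, rose, with a log2FC of 0.38 (SE 0.11) in E– and 0.77 (SE 0.11) in E+ embryos. Of the 6 retinoic acid genes tested 1 rose and 5 fell in E– embryos, and 1 rose and 4 fell in E+ embryos. The gene listed as ALDH1A2 was called in E– embryos only. Its log2FC was -0.52 (SE 0.16) in E– and -0.23 (SE 0.16) in E+ embryos. The interaction of diet and time had an adjusted p of 0.923 for this gene in edgeR's quasi-likelihood test, so a difference between the diets was not shown.

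Levels of tissue markers were compared over the same interval, from 12 to 24 hpf. Among all genes 28.9% rose and 26.6% fell over it in E– embryos, and 27.3% rose and 26% fell in E+ embryos. All 3 tailbud and presomitic mesoderm markers tested fell, and msgn1 had 622, 188 and 26.5 CPM at the 3 times in E– pools and 567, 191 and 28.5 CPM in E+ pools. Both muscle markers rose. The muscle actin gene actc1b had 35.1, 842 and 3116 CPM in E– pools and 48.3, 789 and 3379 CPM in E+ pools. The gene listed as MYOD1 averaged 44.8 CPM at 18 hpf and 29.3 CPM at 24 hpf in E– pools, and 48.3 CPM at 18 hpf and 32.0 CPM at 24 hpf in E+ pools. It fell over that step by 0.61 (SE 0.12) in E– and 0.59 (SE 0.11) in E+ embryos on the log2 scale. Of the 3 neural markers 1 rose and 1 fell in each diet. The rhombomere marker EGR2, which is also in the list above, fell. The red cell marker tested, hbae1.1, rose. No marker was called for diet over the 3 times. The part of these differences in the changes of the hoxba genes was not tested.

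For the genes at the 2 ends of the tested row, the genes with the most similar profile were found by Pearson's correlation of log2 CPM over the 24 pools. hoxb2a took the place of hoxb1a, which had too few reads, a choice made after the counts were seen. hoxb9a was closest to POLR1A (r = 0.96), EGR2 (r = 0.96) and krt99 (r = 0.96), and hoxb2a to HELT, CEP131 and ELAVL3 (r = 0.94 each). The pools fall into 3 ages, so these values describe a shared course with age.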

How the data were processed

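All 24 pools were used and grouped by the diet and time in their labels. The authors trimmed reads, aligned them to GRCz11 with STAR 2.7.3a and deposited the read counts of each Ensembl gene without normalization. The strand counted is not given in the sources used here. Molecular identifiers are not mentioned in the sources used here, so reads may include copies of the same molecule. Read depth is then no measure of the number of molecules counted.

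Tests were run with edgeR 4.0.16 in R 4.3.3 (TMMwsp scaling, quasi-likelihood F-test with 1 mean per group, FDR under 0.1). The scaling, test and threshold follow the study's methods. The gene filter does not, since its text names none, and filterByExpr (19597 of 32520 genes kept) was chosen with the effect of that choice on the number of calls known. The SE is the size of the log2FC divided by the square root of F. The fit was tested on simulated data at 2 effect sizes, where it called most but not all changed genes, and fewer of them at the smaller size. Both sizes were larger than any log2FC of a member between the diets. The simulation therefore does not show how often differences as small as those would be called. Alternatives were TMM, DESeq2 1.42.0, no filter, a lane term, a replicate block, edgeR's newer quasi-likelihood method, each lane alone, FDR under 0.05 and leaving out each pool.

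All 9 members are named. Other hox genes and a list of upstream, partner and tissue genes were taken by symbol and given by counts, with values for hoxb10a, the gene listed as HOXB13 and examples that passed the test. The members and lists were chosen with earlier results of these data known. Symbols came from an identifier table that mostly uses human-style names, and 25 hox genes so named were added to 14 with zebrafish symbols after that table was seen. No sequences are shown here.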

Additional observations from a re-analysis of the deposited data

How the results depend on the processing

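No member was called for diet under any alternative, and leaving out single pools gave 0 to 0 calls in all 5 diet comparisons. Of 1024 recomputed values of the 32 called changes with age, 972 kept their call, 52 lost it and 0 turned sign. Without single pools the members called numbered 4 to 5 (18 over 12 hpf, E–), 4 to 6 (24 over 18 hpf, E–), 4 to 5 (24 over 12 hpf, E–), 4 to 6 (18 over 12 hpf, E+), 4 to 6 (24 over 18 hpf, E+) and 5 to 5 (24 over 12 hpf, E+). With lane 7 alone, 2 pools per group, 2, 2 and 3 members were called in E– embryos in these 3 comparisons and 3 in E+ embryos for 24 over 18 hpf. With lane 8 alone, 3 were called for 24 over 18 hpf in E– embryos, and 3 for 18 over 12 hpf and 2 for 24 over 18 hpf in E+ embryos. An FDR under 0.05 left 3 for 24 over 12 hpf in E– embryos. Fewer pools or a stricter threshold are the construction of these settings.

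Signs turned only in changes that were not called. With lane 7 alone, the log2FC of E– over E+ at 12 hpf was 0.0099 for hoxb5a, 0.031 for hoxb8a and -0.034 for hoxb9a, and at 24 hpf 0.079 for hoxb5a. With lane 8 alone it was -0.0081 for hoxb2a, 0.022 for hoxb4a and -0.069 for hoxb7a at 12 hpf, 0.36 for hoxb2a and 0.094 for hoxb6a at 18 hpf, and 0.31 for hoxb4a and 0.027 for hoxb9a at 24 hpf. With age, hoxb4a turned to -0.51 (24 over 18 hpf, E–, lane 7), 0.31 (24 over 12 hpf, E–, lane 8), 0.19 (18 over 12 hpf, E+, lane 8) and 0.022 (24 over 12 hpf, E+, lane 8). hoxb6a (24 over 12 hpf, E+) turned to 0.0010 with TMM and 0.21 with lane 7 alone. Without single pools, E– over E+ ranged from -0.044 to 0.18 for hoxb2a, -0.33 to 0.31 for hoxb4a, -0.021 to 0.30 for hoxb6a and -0.069 to 0.035 for hoxb8a at 12 hpf, from -0.13 to 0.061 for hoxb2a and -0.14 to 0.057 for hoxb6a at 18 hpf, and from -0.0029 to 0.19 for hoxb2a and -0.63 to 0.17 for hoxb4a at 24 hpf. With age the ranges were -0.23 to 0.51 for hoxb4a (24 over 18 hpf) and -0.12 to 0.067 for hoxb3a (24 over 12 hpf) in E– embryos, and -0.41 to 0.29 (18 over 12 hpf), -0.66 to 0.17 (24 over 18 hpf) and -0.74 to 0.13 (24 over 12 hpf) for hoxb4a and -0.23 to 0.088 for hoxb6a (24 over 12 hpf) in E+ embryos. The cause was not tested.

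The replicate block changed no count of members called, 0 in each diet comparison and 5, 6, 5, 6, 5 and 5 with age. Same-numbered E– and E+ pools deviated together in 1 of 12 pairs (r over 0.1, range -0.21 to 0.10), so the numbers were not read as pairs. Counts over all genes depend more on the fit. For diet over the 3 times 220 genes were called, against 637 with DESeq2, 573 without the filter and 13 and 51 in lanes 7 and 8 alone. At single times the counts were 158, 78 and 0, and they ranged from 0 to 338, 3 to 199 and 0 to 26 over the settings that kept all pools or 1 lane. The interaction count was 3 and ranged from 0 to 122. Without single pools these 5 counts ranged from 105 to 362, 49 to 336, 7 to 110, 0 to 4 and 0 to 62. With age, 1 lane alone gave as few as 4898 of 8262 (18 over 12 hpf, E–), 1936 of 4278 (24 over 18 hpf, E–) and 2132 of 4863 (24 over 18 hpf, E+) genes. CPM on unscaled totals shifted the median of all genes by up to 0.11 on the log2 scale (18 over 12 hpf, E–).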

Other observations

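Within each of the 54 combinations of gene and group, no pool stood apart from the other 3 by Dixon's test at its 95% limit, where chance alone would be expected to give 2.7.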
